A study of Arabidopsis thaliana with 18 samples.

Results

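The transcriptional response to N starvation was examined in shoots of AOpro(mut)-AO plants, an Arabidopsis line in which the aspartate oxidase gene AO lacks its nitrate-responsive promoter site. The arrays were chosen by their labels, 3 taken after 3 days without N and 3 taken at 0 d, which are 6 of the 18 arrays in the series. Both groups carried the T-DNA null allele fin4-2 of AO in the Col background and were complemented with a genomic AO fragment whose promoter had its binding site for NIN-LIKE PROTEIN (NLP) transcription factors mutated. The 0 d plants had been grown in hydroponic culture with N under continuous light, and the starved plants were then held in N-free medium that contained added K2SO4. The AOpro(wt)-AO line, which carries the same fragment with an intact site in the same null background, was sampled at the same 2 stages with 3 arrays each and is given only for contrast. Each genotype was represented by 1 transgenic line, and each replicate pooled the shoots of 2 to 3 seedlings. Plants kept on N for the same 3 days were not among the arrays, so N withdrawal and 3 days of further growth cannot be told apart. The labels do not say that replicates came from separate cultures, and p-values therefore measure only the spread between these arrays.

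When N runs short, plants lower the expression of genes that nitrate induces, raise high-affinity uptake systems, and recover N from older leaves through senescence, autophagy and the export of amino acids. NLP factors bind nitrate-responsive elements and activate genes for nitrate uptake and reduction together with feedback regulators. Aspartate oxidase is the plastid enzyme that starts NAD synthesis from aspartate. The stretch of the AO promoter (chromosome 5) in which the lines differ is printed from oligonucleotides of the study, with the differing bases in capitals. The mutated stretch is from AO-comp-mut1-FW. The wild-type stretch is from AOpmut2-FW, an oligonucleotide that by its name was made for another mutation of the promoter.

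wild-type site: tagttgtGgcCgtTgga

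mutated site: tagttgtTgcAgtGgga

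These stretches differ by 3 substitutions, G8T, C11A and T14G, each written from the wild-type to the mutated base and counted from 1 at the 5′ end of the stretch shown.

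AO itself did not pass the test after N starvation in this line. Levels are log2 processed signal relative to the 75th percentile of the array, which is 0, and they can be compared between arrays but not between genes. AO lay at -1.43, -1.59 and -0.99 at 0 d and at -0.87, -1.46 and -1.63 after starvation. The groups overlapped, and the log2 fold change was 0.02 (SE 0.19, adjusted p = 0.953 by limma). In AOpro(wt)-AO plants the gene stood at 1.5, 1.41 and 1.62 at 0 d and at 1.04, 1.00 and 1.14 after starvation, so every AOpro(mut)-AO array lay below every AOpro(wt)-AO array. Among the 11 tested genes of NAD synthesis and NAD kinase none was called, and their median log2 fold change was 0.08.

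The arrays were of even quality. The 75th percentile of the signal ran from 2222 to 3122 over the 18 arrays, replicate arrays of AOpro(mut)-AO plants correlated at 0.993 to 0.996, the median residual SD of a probe was 0.103 on the log2 scale, and no spot was saturated. All 5 leaf mesophyll markers were well above background on all 6 arrays, and their summed linear signal was 873 to 995 times the 75th percentile at 0 d and 850 to 1020 times after starvation. None of the 9 reference genes of even level was called, and their median log2 fold change was -0.0036.

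N starvation raised 310 genes and lowered 235 in AOpro(mut)-AO shoots. A gene was called when a probe of it had an adjusted p of 0.05 or less and a log2 fold change of at least 1 in size, and the counts were 1.47% and 1.12% of the 21060 genes tested. The same contrast in AOpro(wt)-AO plants called 622 genes higher (2.95%) and 456 lower (2.17%). Of the higher genes, 152 were called higher in both lines, which is 49% of those in AOpro(mut)-AO and 24.4% of those in AOpro(wt)-AO plants. Of the lower genes, 161 were shared, which is 68.5% and 35.3%. The median change over all tested genes was -0.00364, and 49.3% had a fitted change above 0. At any fold, 4029 of the 21060 genes passed the adjusted p upward by any probe and 5127 downward. The any-fold counts of lists given below are to be read against these. The 2 groups of arrays did not overlap for 497 of the 512 genes called by their brightest probe, against 53% of all tested genes. With normexp background correction the counts were 61 higher and 112 lower, so the larger side changed.

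**Figure D1:**
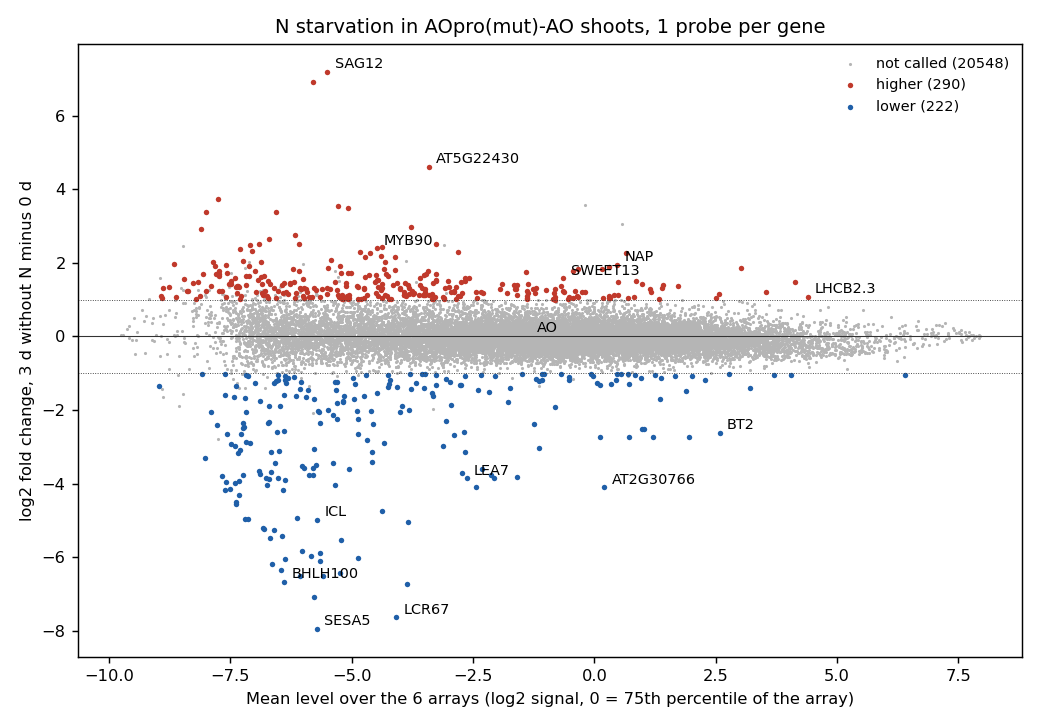
Log2 fold change (starved minus 0 d) against mean log2 level in AOpro(mut)-AO plants, with 1 dot for the brightest probe of each tested gene, 290 higher, 222 lower and the rest not called. The changes ran from -7.94 for SESA5 to 7.19 for SAG12, both of which were not well above background in their dim group.

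The strongest rises among genes measured on all 6 arrays included a peroxidase, a major latex protein relative, regulators of cuticle, pigment and flowering, and several proteins with no described function. AT5G22430, an unknown protein, lay at -5.88, -5.56 and -5.68 at 0 d and at -1.69, -0.32 and -1.31 after starvation. Every starved array was far above every 0 d array, and the rise was 24.3-fold (log2 4.60, SE 0.38, adjusted p = 6.23e-06 by limma). The peroxidase gene AT4G16270 stood at -6.84, -6.52 and -7.07 and then at -4.1, -2.67 and -3.23, a log2 fold change of 3.48. AT4G14060, of the major latex protein group, rose by 2.96 and AT4G19430, an unknown protein, by 2.5. The alliinase family gene AT1G34060 rose by 2.29, and AT1G68600 and AT1G70270, for which no description was at hand, by 2.25 and 2.19. UMAMIT19, of a family of amino acid exporters, rose by 2.16, and its relative UMAMIT36 by 1.4. With normexp correction AT4G16270, AT1G70270 and UMAMIT19 lost their calls. OPT1, an oligopeptide transporter, lay at -0.67, -0.78 and -0.82 at 0 d and at 0.89, 1.19 and 1.12 after starvation, a log2 fold change of 1.82.

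**Figure D2:**
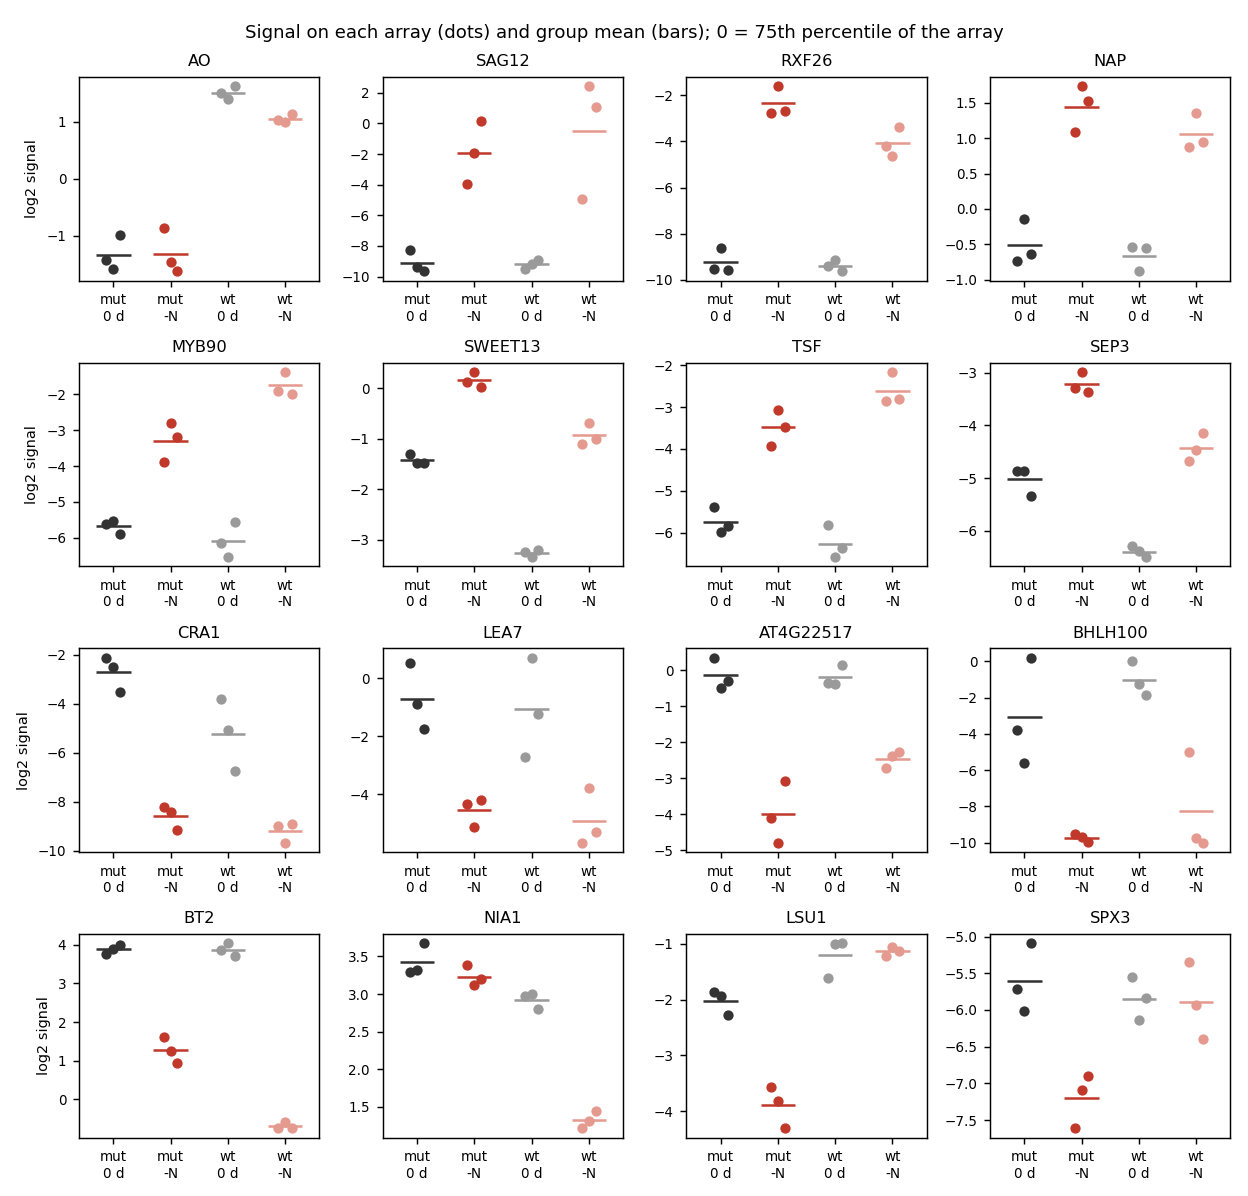
Log2 level of 16 genes on each array (dots) with group means (bars) for AOpro(mut)-AO plants at 0 d and after N starvation and for AOpro(wt)-AO plants at the same stages. SAG12 differs most among starved arrays, from -3.95 to 0.14 in AOpro(mut)-AO plants, and NIA1 falls in AOpro(wt)-AO plants while its AOpro(mut)-AO groups overlap.

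Senescence genes were headed by SAG12 and NAP. SAG12, a cysteine protease of senescing leaves, lay at -8.25, -9.38 and -9.67 at 0 d, where no array was well above background, and at -3.95, -1.91 and 0.14 after starvation. The starved arrays spread widely, and the rise was at least 46.2-fold (adjusted p = 0.0018 by limma), where the bound sets the mean of the bright group against the lowest signal well above background on the dim arrays. The bound was 22.7-fold without starved replicate 3 and 93.8-fold without starved replicate 1. The call of SAG12 was lost with normexp correction. NAP, a NAC factor that promotes leaf senescence, went from -0.73, -0.14 and -0.64 to 1.08, 1.73 and 1.52, a log2 fold change of 1.95. These were the 2 called members of 23 tested genes of senescence and chlorophyll breakdown, whose median was 0.27, and 11 of the 23 passed the adjusted p upward at any fold. In AOpro(wt)-AO plants 6 members were called higher and the median was 0.72. Autophagy genes, which serve bulk recycling of cell contents, all had fitted changes above 0, with a median of 0.32. Of these, 11 of 14 passed the adjusted p at any fold, against 4029 of all 21060 genes upward, but none reached the fold threshold. The largest was ATG8A, a ubiquitin-like autophagosome protein, with a log2 fold change of 0.52.

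Some transporters of N rose, and genes that handle amides moved both ways. All 16 tested genes of nitrate, ammonium and urea transport had fitted changes above 0, with a median of 0.42, and 3 were called higher. NRT2.5, a high-affinity nitrate transporter of starved plants, lay at -7.83, -7.93 and -8.76 at 0 d and at -6.55, -5.31 and -5.08 after starvation, and rose at least 3.46-fold (adjusted p = 0.00896 by limma). The urea transporter DUR3 rose from -0.83, -0.73 and -1.02 to -0.20, 0.53 and 0.28, and NRT1.5, which loads nitrate into the xylem, from -1.07, -1.0 and -0.85 to 0.18, -0.01 and 0.08, each with a log2 fold change of 1.06. The call of DUR3 was lost without 0 d replicate 3 (0.98) or starved replicate 2 (0.90). NRT1.1, the dual-affinity nitrate transporter, had a log2 fold change of 0.95. None of the 3 calls was made with normexp correction. GLN1;4, a cytosolic glutamine synthetase, rose by 1.3, and GSR 1, another cytosolic form, was called by its dimmer probe only. ASN2, an asparagine synthetase, fell by 1.04, a call lost without 0 d replicate 3 (-0.94) or starved replicate 2 (-0.95), and GDH2, a glutamate dehydrogenase subunit, was called lower by its dimmer probe only. LHT1, an amino acid importer, rose by 1.14, and ALN, the allantoinase of purine breakdown, by 1.38 (from -1.29, -1.25 and -1.56 to 0.00, 0.01 and 0.02).

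None of the 9 genes of nitrate reduction and its reductant supply was called in AOpro(mut)-AO plants. At any fold 3 of them passed the adjusted p downward, against 5127 of all 21060 genes. NIA1, a nitrate reductase, lay at 3.30, 3.32 and 3.67 at 0 d and at 3.39, 3.11 and 3.19 after starvation, with a log2 fold change of -0.20 (SE 0.11, adjusted p = 0.193 by limma). In AOpro(wt)-AO plants it went from 2.97, 3.00 and 2.80 to 1.21, 1.31 and 1.44, a change of -1.60. The difference between the changes was 1.41 (interaction adjusted p = 0.00046 by limma). By the limma interaction term, the change differed between the lines (adjusted p up to 0.05) for 1650 of the tested genes (7.83%) and for 5 of the 9 here. The other four were NIA2, the major nitrate reductase, at 0.03 against -0.99, NIR1, nitrite reductase, at -0.40 against -1.7, UPM1, of sirohaem synthesis, at -0.48 against -1.63, and G6PD3, a plastid source of reductant, at -0.49 against -1.36. The list had a median of -0.15 in AOpro(mut)-AO and -0.99 in AOpro(wt)-AO plants, and 5 interactions were counted under each alternative processing that was run.

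Among nitrate-responsive regulators the BT genes fell. BT2, a BTB and TAZ domain scaffold protein, lay at 3.77, 3.89 and 4.0 at 0 d and at 1.62, 1.26 and 0.94 after starvation, a 6.11-fold fall (log2 -2.61, adjusted p = 1.1e-05 by limma). BT1 fell by 1.29 and BT5 by 1.15, and these 3 were the called members of 16. In AOpro(wt)-AO plants 8 members were called lower, and BT2 changed by -4.55. The repressors LBD37, LBD38 and LBD39 had log2 fold changes of -0.64, -0.87 and -0.98 against -1.60, -1.85 and -2.64 in AOpro(wt)-AO plants. An interaction was found for 8 of the 16 regulators, 7 of them above 0.

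CC-type glutaredoxins, small redox proteins of which several respond to nitrate, differed between the lines in 13 of 17 tested members. Of these 17, 2 were called higher (AT2G47880 at 1.22 and AT3G62960 at 1.18) and 2 lower (AT4G15680 at -1.41 and AT1G03020 at -1.07), with a median of -0.19. AOpro(wt)-AO plants had 11 called lower and a median of -2.20. AT4G15680 lay at -2.89, -3.10 and -2.41 at 0 d and at -3.86, -4.45 and -4.31 after starvation, whereas in AOpro(wt)-AO plants it went from -3.63, -3.22 and -3.74 to -9.39, -9.38 and -9.91, where no starved array was well above background, so the size of that fall was not measured. All 13 interactions in the list were above 0, and 7 to 13 were found across the alternatives. The call of AT1G03020 was lost without starved replicate 3 (-0.98). Several of these genes are close copies in sequence and can share hybridization signal.

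**Figure D3:**
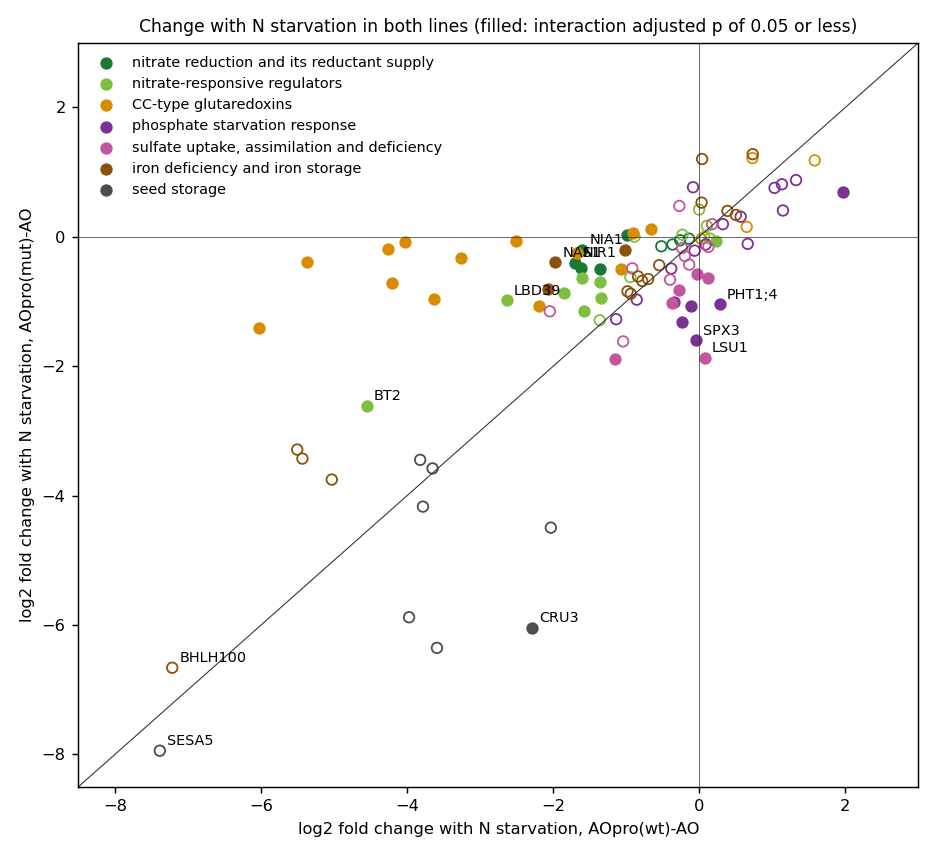
Log2 fold change with N starvation in AOpro(mut)-AO plants against that in AOpro(wt)-AO plants for members of 7 gene lists, with filled points where the interaction term passed the test. BT2 changed by -2.61 and -4.55, LSU1 by -1.87 and 0.07.

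Pigment, starch and ethylene genes rose in small numbers. MYB90, an activator of anthocyanin synthesis, lay at -5.61, -5.54 and -5.91 at 0 d and at -3.88, -2.79 and -3.20 after starvation, a log2 fold change of 2.39 (SE 0.59, adjusted p = 0.0057 by limma). Its relative PAP1 rose by 1.32 and kept its call with normexp correction, whereas MYB90 lost its call. They were the 2 called of 15 anthocyanin genes, whose median was 0.64, while none of 13 early flavonoid genes was called. GBSS1, granule-bound starch synthase, AMY1, an alpha-amylase, and GPT2, a glucose phosphate translocator, were the 3 called of 16 starch genes, at 1.08, 1.07 and 1.03. Each of these calls was lost when single arrays were left out, GBSS1 without 0 d replicate 2 (0.86) or starved replicate 1 (0.93), AMY1 without 0 d replicate 3 or starved replicate 2 (0.91 each), and GPT2 without any of 4 arrays (0.78 at the lowest). In a list drawn up after the values had been seen, 3 of 12 ethylene synthesis genes were higher. ACS8, not well above background on any 0 d array, rose at least 1.62-fold, and ACO1 and ACS4 lay at 1.28 and 1.27. With normexp correction ACS8 had a fitted change of -0.29, and AMY1, GPT2, ACO1 and ACS4 lost their calls. The call of ACS4 was lost without starved replicate 3 (0.90), and that of ACS8 without 0 d replicate 2 or starved replicate 1.

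**Figure D4:**
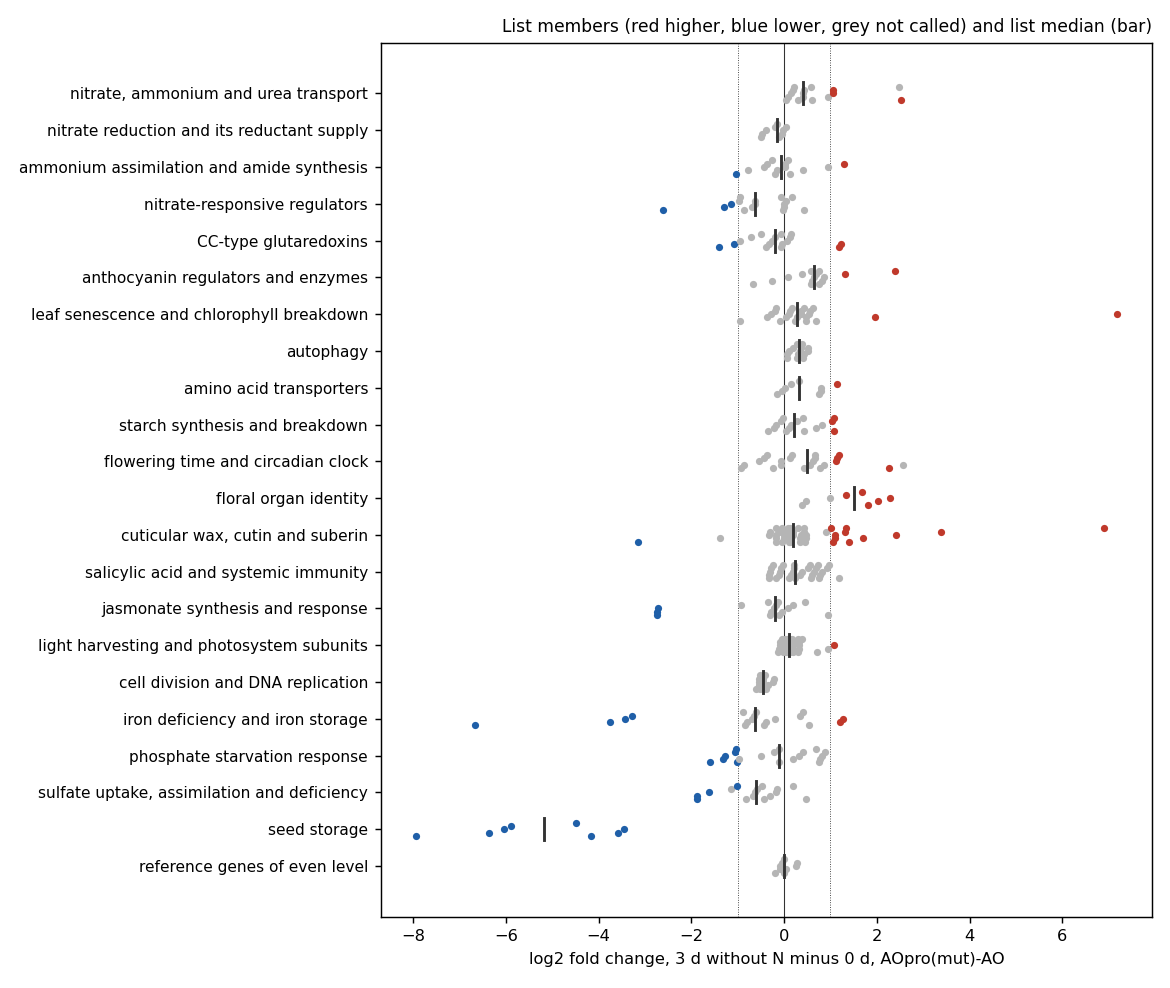
Log2 fold change with N starvation in AOpro(mut)-AO plants for the members of 22 gene lists (dots) with the median of each (bar) and dotted lines at -1 and 1. Nitrogen transport has all its members above 0 and cell division all below 0.

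Part of the genes for surface lipids rose, in a list chosen after the values had been seen. Of 45 genes of wax, cutin and suberin, 11 were called higher and 1 lower, and the median was 0.19. RXF26, a carboxylesterase gene, lay at -9.55, -8.62 and -9.60 at 0 d and at -2.77, -1.61 and -2.66 after starvation, a rise of at least 34.1-fold (adjusted p = 1.69e-06 by limma). SHN3, an AP2-type activator of cuticle synthesis, went from -5.43, -5.60 and -5.72 to -3.65, -2.87 and -2.97. Its relative SHN1 had a fitted rise of 3.38, with only 1 array at 0 d well above background, so its size was not measured. CYP96A15, which oxidises wax alkanes, rose by 1.7, CYP86A1, a fatty acid hydroxylase of suberin, by 1.4, KCS2, an elongase, by 1.33, and CER4, a fatty acyl reductase, by 1.1. The suberin genes FAR5, FACT and FAR4 lay at 1.09, 1.05 and 1.02 and lost their calls without 5, 4 and 3 of the single arrays, with lowest values of 0.81, 0.91 and 0.96, and MYB93 (1.3) lost its call without 0 d replicate 2 (0.99). CDEF1, a cutinase, fell by 3.15. With normexp correction 2 members were called higher.

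Some sugar exporters and floral regulators were higher. SWEET13, a sucrose exporter, lay at -1.31, -1.48 and -1.49 at 0 d and at 0.12, 0.32 and 0.02 after starvation (log2 1.58). SWEET10 rose by 3.53 and SWEET14 by 1.45, and these were 3 of 14 tested SWEET genes, a list also chosen after the values had been seen, whose median was -0.03 and of which 3 others passed the adjusted p downward at any fold. TSF, a homologue of florigen, went from -5.40, -5.98 and -5.85 to -3.92, -3.06 and -3.47 (log2 2.26, adjusted p = 0.000104 by limma). AP1, CCA1 and PRR9, a floral meristem factor and a pair of clock genes, were the other called members of 22 flowering and clock genes, at 1.18, 1.13 and 1.11. CCA1 lost its call without 0 d replicate 1 or 2 (0.97 each) or starved replicate 1 (0.98), and PRR9 without 0 d replicate 3 (0.92). Of 8 floral organ identity genes, 5 were higher. SEP3 lay at -4.86, -4.86 and -5.33 and then at -3.29, -2.99 and -3.36, SEP2, AP3 and SEP1 rose by 2.29, 1.67 and 1.34, and AG, not well above background at 0 d, rose at least 3.00-fold. The summed signal of the list went from 0.312 to 0.374 at 0 d to 0.728 to 0.957 after starvation, in units of the 75th percentile. In whole shoots, more cells of a type and more RNA per cell cannot be told apart. None of the 5 floral calls was made with normexp correction, and the calls of SWEET10, SWEET14, TSF, AP1 and PRR9 were also lost with it.

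Seed storage and embryo maturation genes fell. All 8 tested seed storage genes were called lower, with a median log2 fold change of -5.19, or -3.82 with genes not measured after starvation set at their bound. SESA5, a 2S albumin, lay at -1.27, -1.51 and -2.45 at 0 d and at -9.54, -9.66 and -9.86 after starvation, where no array was well above background, a fall of at least 51.5-fold (adjusted p = 2.38e-05 by limma). CRA1, a cruciferin, went from -2.13, -2.52 and -3.51 to -8.24, -8.42 and -9.14, at least 26.2-fold. The vicilin-like PAP85 fell at least 36.6-fold, the steroleosin HSD1 at least 41.8-fold, AT1G54870 at least 34-fold and M17 at least 28.4-fold. The summed signal of the list was 0.554 to 1.09 at 0 d and 0.0199 to 0.0255 after starvation, and in AOpro(wt)-AO plants it was 0.113 to 0.953 and 0.0121 to 0.0278. With normexp correction 5 of the 8 were called, and 6 of the 8 were not well above background on any starved array. Here too, fewer cells of a type and less RNA per cell cannot be told apart in whole shoots.

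Late embryogenesis abundant (LEA) genes, which protect drying tissue, fell with them. AT3G15670 lay at -2.0, -1.71 and -2.32 at 0 d and at -6.41, -6.89 and -6.98 after starvation, a log2 fold change of -4.75 (SE 0.55, adjusted p = 4.04e-05 by limma). LEA7 went from 0.53, -0.88 and -1.75 to -4.33, -5.13 and -4.2, a log2 fold change of -3.85 that was -3.24 without 0 d replicate 1. AT3G17520 fell by 3.41. The group 1 LEA genes GEA6 and EM1 fell by 6.72 and 4.04. MLS and ICL, the enzymes of the glyoxylate cycle of seedlings, were the 2 lower members of 20 genes of amino acid breakdown and gluconeogenesis, of which MLS fell at least 4.19-fold. ICL had a fitted log2 fold change of -4.98 (-4.32 without starved replicate 1 and -5.94 without starved replicate 3), with 1 starved array well above background. HSP17.6A, a small heat shock protein, fell at least 5.07-fold.

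A run of neighbouring lipid transfer genes on chromosome 4 fell together. All 8 tested genes from AT4G22485 to AT4G22520, of the protease inhibitor, seed storage and lipid transfer family, were lower, with log2 fold changes of -5.03 to -1.29. AT4G22517 lay at 0.35, -0.49 and -0.29 at 0 d and at -4.12, -4.80 and -3.07 after starvation, and AT4G22513 fell by 3.82. These copies can share hybridization signal, so they are not 8 separate measurements. The F-box gene AT5G55150 fell from -1.94, -3.30 and -4.55 to -6.90, -6.79 and -6.89, a log2 fold change of -3.59 that was -2.93 without 0 d replicate 1 and -4.24 without 0 d replicate 3. No AOpro(wt)-AO array of either stage was well above background for it.

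Iron deficiency regulators fell, and 7 iron genes were lower in AOpro(wt)-AO plants. The Ib bHLH factors, which are induced when iron is short, were 4 of the 18 tested iron genes and all were lower. BHLH100 lay at -3.78, -5.62 and 0.20 at 0 d and at -9.54, -9.68 and -9.97 after starvation, a fall of at least 20.6-fold (adjusted p = 0.00205 by limma), and 0 d replicate 3 was the highest array for all 4 genes. Without that array the fall of BHLH100 was at least 6.63-fold, and without 0 d replicate 2 at least 49.9-fold. BHLH101 fell at least 4.2-fold, or 2.42-fold without 0 d replicate 3, and bHLH38 at least 5.87-fold, or 2.79-fold. bHLH39 had a log2 fold change of -3.29 and lost its call without 0 d replicate 3 (-1.90) or any starved array. The unknown proteins AT2G14247, AT2G30766, AT1G47395 and AT1G47400 were highest on the same 0 d array and fell by 4.1, 4.09, 3.77 and 3.69. Without that array their log2 fold changes were -3.02, -3.44, -2.96 and -2.80. NAS3, a nicotianamine synthase, rose by 1.28. FER1, a ferritin, lay at 2.1, 3.90 and 2.78 and then at 3.70, 4.50 and 4.18, and its call (1.2) was lost without 0 d replicate 1 (0.79) or any of 3 other arrays. With normexp correction 1 iron gene was called lower.

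A share of the phosphate and sulfate starvation genes fell in AOpro(mut)-AO plants. LSU1, a small protein of the sulfur deficiency response, lay at -1.86, -1.93 and -2.28 at 0 d and at -3.56, -3.82 and -4.31 after starvation, a log2 fold change of -1.87, while in AOpro(wt)-AO plants it stood at -1.62, -1.0 and -0.99 and then at -1.21, -1.06 and -1.12 (interaction -1.94, adjusted p = 0.0039 by limma). AT5G26220, of the ChaC-like family, fell by 1.89 and ATSDI1, another sulfur deficiency gene, by 1.62. APR3, an adenylylsulfate reductase, changed by -1.02, and its call was lost without any of 3 arrays (-0.95 at the smallest). These were the 4 called of 16, and 14 had fitted changes below 0. The N-free medium contained added K2SO4, and its part in this result was not tested. Among 19 phosphate genes 6 were lower. SPX3, of the SPX family of phosphate sensors, lay at -5.71, -6.01 and -5.09 and then at -7.61, -7.09 and -6.90 (log2 -1.60), SRG3 and AT5G03545 fell by 1.32 and 1.27, and SPX1 by 1.06. PHT1;4, a phosphate transporter, and PAP17, a phosphatase, changed by -1.04 and -1.01 and lost their calls without 0 d replicate 3 (-0.96) or starved replicate 1 (-0.87), and without 0 d replicate 1 (-0.98) or starved replicate 1 (-0.92). In AOpro(wt)-AO plants 5 phosphate genes were higher and 1 lower. Each list held 6 interactions, all below 0, and across the alternatives there were 2 to 6 for phosphate and 1 to 6 for sulfate.

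Defence genes moved in different directions by family. Of 18 tested plant defensins, small antimicrobial peptides, 7 were lower (38.9%). These include PDF1.2, PDF1.2b, PDF1.2c and PDF1.3, so the 7 are not all separate measurements. In AOpro(wt)-AO plants 2 defensins were lower, and no defensin had an interaction that passed the test. LCR67 lay at -0.27, 0.17 and -0.73 at 0 d and at -7.53, -7.81 and -8.36 after starvation, a fall of at least 142-fold (adjusted p = 1.29e-05 by limma). PDF1.2 went from 4.26, 3.15 and 2.53 to 0.81, 0.83 and 0.15, and PDF1.2b and PDF1.3, near-identical copies that can share its signal, behaved alike. The calls of these 3 were lost without any array but 0 d replicate 3 (-2.24 to -2.88). They were the 3 lower of 16 jasmonate genes, of which THI2.1, a thionin, was called higher by its dimmer probe only. PDF1.5 fell by 2.3 and the chitinase gene AT2G43590 by 2.52. By contrast, 5 of 35 cysteine-rich receptor-like kinases were higher and none lower, among them CRK37 at 1.82, CRK36 at 1.22 and CRK38, at least 2.5-fold. None of 31 salicylic acid and systemic immunity genes was called, with a median of 0.23 and 11 past the adjusted p upward at any fold, and none of 63 WRKY factors was called.

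Few photosynthesis and growth genes were called. Of 43 light harvesting and photosystem genes only LHCB2.3 was called, at 1.08, which is 2.33% against 1.47% of all genes called higher. This call was lost without 0 d replicate 1 (0.99) or starved replicate 1 (0.94). The list had a median of 0.10 in AOpro(mut)-AO and -0.16 in AOpro(wt)-AO plants. An interaction was found for 10 of the 43, all above 0, against 7.83% of all tested genes. None of 18 Rubisco and Calvin cycle genes was called. All 14 genes of cell division and DNA replication had fitted changes below 0, with a median of -0.46, and 13 passed the adjusted p, but none reached the fold threshold. In the cytokinin list IPT7, an isopentenyl transferase, rose at least 2.51-fold and was the 1 called of 21, while AOpro(wt)-AO plants had 3 higher and 6 lower. With normexp correction IPT7 had a fitted change of -0.19, and its call was also lost with the deposited value table. An interaction was found for 11 of the 21 cytokinin genes, 10 of them above 0. None of 28 glucosinolate genes and none of 16 abscisic acid, cold and drought genes was called.

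By the brightest probe, 7.83% of all tested genes had an interaction between line and N starvation. In 70 of the 310 higher and 235 lower genes, counted by any probe, the response differed between the lines by the interaction. One of them outside the lists was LTP3, a lipid transfer protein, which lay at 0.42, 0.25 and 0.85 at 0 d and at 1.88, 1.54 and 1.97 after starvation but changed by -1.42 in AOpro(wt)-AO plants, so it was called in opposite directions in the lines. AT5G09780, a B3-domain gene also named REM25, rose at least 2.94-fold in AOpro(mut)-AO plants and was not well above background at 0 d in either line. The cruciferin CRU3 fell at least 16.8-fold in AOpro(mut)-AO plants and was not well above background on any starved array of either line. Its 0 d level was lower in AOpro(wt)-AO plants, at -5.83, -6.67 and -9.03 against -2.43, -3.29 and -4.37. The count of 70 fell to 35, 40 and 36 without 0 d replicate 1, 0 d replicate 2 and starved replicate 1, to 39 and 40 without replicate 2 at 0 d and replicate 2 after starvation of AOpro(wt)-AO plants, and to 42 with the slide as a fixed block.

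Other cell types and technical layout were checked beside these results. Of 5 tested root markers 1 was higher and 1 lower, MYB36 at 1.12 (0.94 without 0 d replicate 2) and WOX5, at least 1.75-fold. The median log2 fold change of the 5 was 0.04. Their summed signal was 0.0749 to 0.105 at 0 d and 0.114 to 0.170 after starvation. In AOpro(wt)-AO plants it was 0.0973 to 0.101 and 0.0714 to 0.0999. The part of root signal in the rise of the suberin genes above was not tested. Of 8 anther and pollen markers 2 were tested and neither was called. The 6 arrays lay on 5 slides, and only the replicate 1 arrays shared a slide. A stretch of chromosome 5 from AT5G49520 to AT5G61610 was looked at separately because many of its genes had differed in level between the lines in earlier work on these data. It held 1034 tested genes, of which 18 were higher (1.74%) and 17 lower (1.64%) after starvation, against 1.46% and 1.09% elsewhere. SESA5, HSD1, AT5G55150, AT5G57510, OPT1, SWEET10, SWEET13, CYP86A1, MYB36 and LTP3 lie in it, and its part in any difference of theirs between the lines was not tested.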

How the data were processed

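Shoot RNA was hybridised to 1-colour Agilent Arabidopsis arrays, 1 array per sample. The authors deposited scanner files from Feature Extraction 12.1.1.1 (version per the file headers) that give processed signal intensity, already background-subtracted, and spot flags (other values, 0 or 1, deposited by the authors). A deposited value table follows the processed intensity divided by about the 75th percentile, and how the authors scaled it is not given in the sources used here. Here log2 processed signal was shifted by the 75th percentile of each array, outlier spots were left out and spots of a probe averaged. Of 43603 probes, 82.9% carried a gene, and 29416 probes of 21060 genes well above background in a whole group were tested. Gene symbols follow RefSeq. All 18 arrays in 6 groups entered 1 limma model (limma 3.58.1, R 4.3.3) with Benjamini-Hochberg adjustment over all tested probes. A gene was called when any probe was, and its values come from the probe with the highest mean. Named genes were the 12 largest rises and falls measured on all 6 arrays without overlap, the 6 largest bounds in each direction, called list members and the largest interactions, and others were named after their values were seen. Members and lists were chosen with earlier results of these data known. On simulated data of 29416 probes, 394 of 400 changed probes were recovered with 5 others called, and for the interaction 194 of 200 with 11 others. All planted changes were larger than the fold threshold, and the noise was normal, with no slide effect and no floor for dim signal. Recovery of changes near the threshold or of dim genes was therefore not tested. Same-numbered replicates did not deviate together (r = -0.0195, -0.00207 and -0.221), so numbers were not taken as pairs. Figures were drawn with matplotlib 3.10.9. The number of arrays limits the precision. The resupply arrays entered the model but no comparison. The alternatives tried were other background corrections, normalizations, filters, blocks, probes and left-out arrays.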

Additional observations from a re-analysis of the deposited data

Results flagged for a closer look

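The genes listed here were drawn from AO and the 126 genes recomputed under other settings, not from all 1650 genes that passed. Each listed gene had an adjusted p of 0.05 or less by limma's interaction term. The difference is the change with N starvation in AOpro(mut)-AO plants minus that in AOpro(wt)-AO plants, on the log2 scale. Differences above 0 were 4.62 for AT4G15680, 2.71 for LTP3, 2.66 for AGP3, 2.46 for EXPB2, 2.39 for AT5G09780, 1.94 for BT2, 1.66 for AG and 1.66 for LBD39. They were 1.56 for PP2-B13, 1.41 for NIA1, 1.3 for NIR1, 1.23 for ASN2, 1.2 for LHCB2.3, 1.15 for UPM1, 1.12 for AT1G03020 and 1.02 for NIA2. Smaller ones were 0.98 for LBD38, 0.97 for LBD37, 0.90 for CER4, 0.87 for G6PD3 and 0.42 for BT5. Differences below 0 were -0.65 for APR3, -0.67 for PAP17, -0.74 for AT5G26220, -0.75 for SWEET13, -0.83 for GLN1;4, -0.95 for SPX1 and -0.98 for UMAMIT19. They were -1.08 for SRG3, -1.18 for AT1G34060, -1.32 for PHT1;4, -1.54 for SPX3, -1.94 for LSU1 and -2.69 for AT5G57510. Others were -2.96 for AT1G23110, -3.14 for AT5G55150, -3.56 for AT3G46070 and -3.75 for CRU3. For 10 of these 38 genes at least 1 of the 4 groups had no array well above background, so the difference is not a measured size. They were AT4G15680, AGP3, EXPB2, AT5G09780, AG, UMAMIT19, AT1G23110, AT5G55150, AT3G46070 and CRU3. The dependence of the interactions on single arrays and on the slide is given with the count of 70 above. Of 3350 tested probes matched to no gene, 54 were called, 31 higher and 23 lower, which is 1.61%.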

How the results depend on the processing

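Of 126 genes recomputed, 115 were called, and 49 of these kept their direction and call in every setting. The counts of higher, lower and interacting genes (310, 235 and 70) were 61, 112 and 10 with normexp correction and 104, 119 and 44 with normexp and quantile normalization. Requiring signal well above background on all 18 arrays, which tests fewer genes, gave 201 higher and 107 lower. Without a minimum fold change there were 4029, 5127 and 964, and testing for a change beyond 0.5 on the log2 scale gave 122 higher and 2 interactions. Array weights gave 192 interactions and the slide as a fixed block 42. Leaving out single AOpro(mut)-AO arrays gave 282 to 393, 208 to 256 and 35 to 99, and AO ranged from -0.21 to 0.19. Leaving out single AOpro(wt)-AO arrays, which was chosen after seeing the data, gave 306 to 310, 234 to 238 and 39 to 53. The replicate block, although the samples were not paired, gave 308, 235 and 70 and changed no call among the 126 genes. With normexp correction 60 of the 115 lost their call, and for 8 of these the fitted change took the other sign, MYB93 (-0.21), EXPB2 (-0.38, and 0 in the deposited value table), IPT7 (-0.19), AG (-0.083), SWEET14 (-0.17), ACS8 (-0.29), AGP3 (-0.22) and AT5G46950 (-0.042). The cause was not tested. Genes called lower included 70 not well above background on any starved array, and genes called higher included 55 not well above background on any 0 d array. Their folds are bounds only where all 3 arrays of the other group were well above background. EXPB2, with 1 such starved array, has no bound. ERF14, AT4G14980 and CCP3 were called higher but were well above background on none of the 6 arrays, and they were tested because of another group.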
